A study of Mus musculus with 45 samples.

Results

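Left ventricles of 6-week-old mice with a reversible aortic constriction (Rev-nAAC) were compared with those of sham-operated mice of the same age, across all genes. The comparison took the 5 Rev-nAAC and 5 sham libraries labelled 6 weeks, 10 of the 45 RNA libraries of the series, chosen by the operation and age in their titles. All mice were wild type, and all were operated on within a day of birth, so the sham mice also went through neonatal surgery. Another operation, the lasting constriction (nAAC), gave 5 libraries at 6 weeks, and the Rev-nAAC and sham libraries of 4 and 8 weeks, 5 in each group, show how the difference stood at other ages. The labels give neither the strain nor the time of release of the constriction, so how long the ventricle had been unloaded at 6 weeks is not known. They also do not say that each library is a separate animal, and p-values measure the spread between libraries. For single genes that spread was estimated over all 45 libraries of the series.

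A narrowed aorta makes the ventricle pump against a higher pressure. Cardiomyocytes under such load thicken and switch on genes of the fetal ventricle, among them the natriuretic peptides and skeletal actin, while genes for calcium cycling, repolarization and fat burning fall. Fibroblasts lay down matrix under the control of TGF-beta and related signals. In the newborn mouse the cardiomyocytes are still leaving the cell cycle and changing from glycolysis to fatty acid oxidation, so load at that age meets a ventricle in the middle of its maturation. A reversible constriction allows the pressure to be taken away again.

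The 10 libraries held 32.3 to 34.2 M counts each (M, mega), and 15444 of 27007 genes had enough counts to be tested. Heart muscle content was checked with 10 cardiomyocyte markers such as Tnnt2, Actc1 and Tnni3, a sum that does not tell the left ventricle from other chambers. Their summed level was 57361, 55188, 62680.0, 69547 and 60443 CPM (counts scaled to a common library size) in Rev-nAAC replicates 1 to 5 and 72621, 71975, 71673, 71438 and 69927 CPM in sham. Every Rev-nAAC library was below every sham library, replicate 4 by the least. The atrial gene Myl7, a light chain of atrial myosin, was at 0.600, 0, 0.0284, 0.0309 and 0.0582 CPM in Rev-nAAC against 5.64, 63.9, 1.99, 0.810 and 12.7 CPM in sham, and sham replicates 2 and 5 held more of it than the other 8 libraries. Xist and 4 Y-linked genes marked 2 of 5 Rev-nAAC libraries, replicates 1 and 4, as female, against 0 of 5 in sham. The 13 protein genes of mitochondrial DNA took 25.8 ± 1.70% of counts in Rev-nAAC and 30.3 ± 1.77% in sham (SD, n = 5 each), a difference of -4.48 percentage points with a two-sided exact permutation p of 0.0079, the smallest that 5 against 5 libraries can give. Rev-nAAC replicate 4 stood apart from its group. Its correlation across genes had a median of 0.978 with the other Rev-nAAC libraries and 0.985 with the sham libraries, and its median absolute log2 difference from sham over all genes was 0.151, against 0.209 to 0.244 in the other 4 Rev-nAAC libraries.

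Of the 15444 genes tested, 2634 differed between Rev-nAAC and sham, 17.1%, at an adjusted p under 0.05 in edgeR's quasi-likelihood test. They split into 1338 higher in Rev-nAAC, 8.66% of genes tested, and 1296 lower, 8.39%. At least a 2-fold difference was reached by 469 of those higher and 196 of those lower. The libraries of both groups did not overlap in 5.54% of all tested genes with Rev-nAAC higher and in 6.63% with Rev-nAAC lower, and 631 of the higher and 772 of the lower calls were among them. Without Rev-nAAC replicate 4, 3400 genes were called, 2523 of them with the same call as before. Without replicate 1, 1812 were called. With the male libraries alone, 3 Rev-nAAC against 5 sham, 3447 genes were called and 2346 of the 2634 kept their call. Log2 fold changes below are Rev-nAAC over sham unless another group is named, with ± their standard error, and all adjusted p-values are from edgeR over all genes tested. A call said to be lost in some of 21 alternatives had an adjusted p of 0.05 or more there or was not tested there. Of the 21, 10 each leave out a library of these groups.

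**Figure D1:**
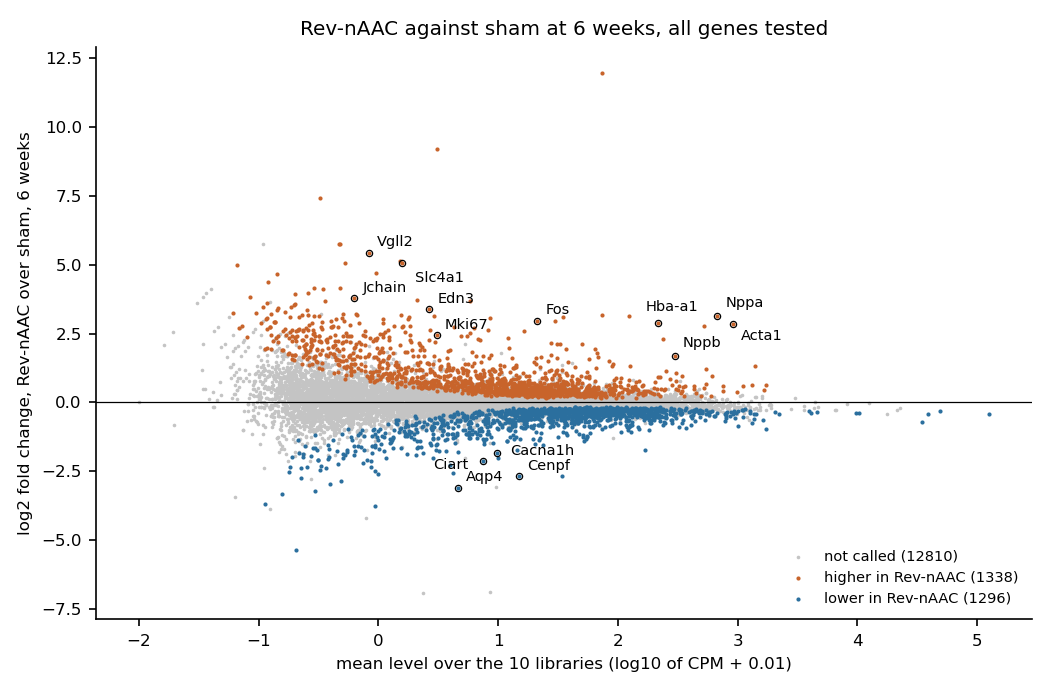
Every tested gene, with its mean level over the 10 libraries on the horizontal axis (log10 of CPM + 0.01) and its log2 fold change, Rev-nAAC over sham at 6 weeks, on the vertical axis; coloured points passed an adjusted p of 0.05 and some of the genes described in the text are named. Called genes lay on both sides of 0, 1338 above and 1296 below, and the higher side reached larger folds, with 469 genes against 196 past 2-fold.

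The load response was still raised, and unevenly so. Nppa, the atrial natriuretic peptide gene (GRCm38, chr4:148000722-148002074), was at 1282, 1073, 2603, 319 and 812 CPM in Rev-nAAC replicates 1 to 5, against 151, 169, 96.0, 95.4 and 175 CPM in sham. Every Rev-nAAC library was above every sham library, and replicate 4 was the lowest of the 5. The log2 fold change was 3.15 ± 0.47 (adjusted p = 2.2e-05). Its neighbour Nppb, the brain natriuretic peptide, was at 378, 482, 654, 239 and 527 CPM in Rev-nAAC and 93.2, 155, 111, 179 and 165 CPM in sham and rose by 1.70 ± 0.38 (adjusted p = 0.0022). Acta1, the skeletal actin of the fetal heart, was at 1085, 1040.0, 2684, 141 and 3061 CPM in Rev-nAAC and 241, 194, 184, 164 and 324 CPM in sham. It rose by 2.85 ± 0.49 (adjusted p = 0.00013), and Rev-nAAC replicate 4 lay below every sham library. Ankrd1, a titin-bound stretch protein, rose by 1.32 ± 0.33 (adjusted p = 0.0052). Of its 5 Rev-nAAC libraries, at 1946, 2108, 3388, 492 and 2088 CPM, replicate 4 was again the lowest and lay below every sham library, at 717, 551, 618, 883 and 1253 CPM. Ankrd1 lost its call when only the 10 libraries entered the fit.

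The beta myosin gene Myh7, another textbook marker of load, was not called. It stood at 394, 234, 519, 215 and 716 CPM in Rev-nAAC and 207, 171, 118, 411 and 305 CPM in sham, groups that overlapped, with a log2 fold change of 0.78 ± 0.49 (adjusted p = 0.28). Its adult counterpart Myh6 had -0.40 ± 0.17 (adjusted p = 0.1). Over the 26 load response genes, 12 rose and 1 fell, with a median log2 fold change of 0.84 against 0.02 over all genes. Besides those above, the risers included Ccn2 and Ccn1, secreted proteins induced by YAP signalling, at 1.33 and 1.27. Mybpc2, the fast skeletal form of myosin-binding protein C, rose by 2.14, and Vgll2, a skeletal muscle partner of TEAD factors, rose by 5.44. Vgll2 had too few counts to be tested with the 10 libraries alone. Gdf15, a circulating stress factor, was at 2.25, 3.19, 5.43, 0.588 and 3.73 CPM in Rev-nAAC and 0.725, 0.879, 0.754, 0.211 and 0.552 CPM in sham and rose by 2.27 ± 0.63 (adjusted p = 0.011). Rrad, a small GTPase that holds back the L-type calcium channel, was the member that fell, at -0.63. The call of Rrad was lost in 7 of 21 alternatives. The higher genes still numbered 12 without replicate 4, with sex in the fit and in males alone, but 11 and 10 without Rev-nAAC replicates 3 and 5 and 9 with the 10 libraries alone.

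The promoters of Acta1 and Ankrd1 are shown because both genes moved and both carry CATTCC, the core of the site that TEAD factors bind, on either strand. Of 11 called risers with a promoter in RefSeq's GRCm38.p6 table (250 bases before to 50 after the start), 6 held it, 54.5%, against 14.7% of all promoters in the table and 14.9% of those of tested genes. The motif was chosen with the results known and a match is no proof of a site. Here and for the promoters below, list members that were not called were not compared. The shares therefore do not tie a motif to the change in Rev-nAAC. Capitals mark the matches. The Acta1 window is chr8:123894726-123895025 and the Ankrd1 window chr19:36119795-36120094, both on the minus strand.
Acta1: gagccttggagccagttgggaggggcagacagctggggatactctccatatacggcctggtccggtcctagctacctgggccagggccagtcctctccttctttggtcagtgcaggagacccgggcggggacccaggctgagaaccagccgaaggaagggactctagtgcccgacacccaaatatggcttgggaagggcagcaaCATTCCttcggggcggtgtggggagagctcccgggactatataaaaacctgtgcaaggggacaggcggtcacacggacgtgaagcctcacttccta
Ankrd1: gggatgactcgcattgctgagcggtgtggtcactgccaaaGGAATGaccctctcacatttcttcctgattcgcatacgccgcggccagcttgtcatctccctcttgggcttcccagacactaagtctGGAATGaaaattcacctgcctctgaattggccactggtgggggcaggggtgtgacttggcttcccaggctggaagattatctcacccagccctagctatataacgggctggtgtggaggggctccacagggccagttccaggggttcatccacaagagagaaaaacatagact

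**Figure D2:**
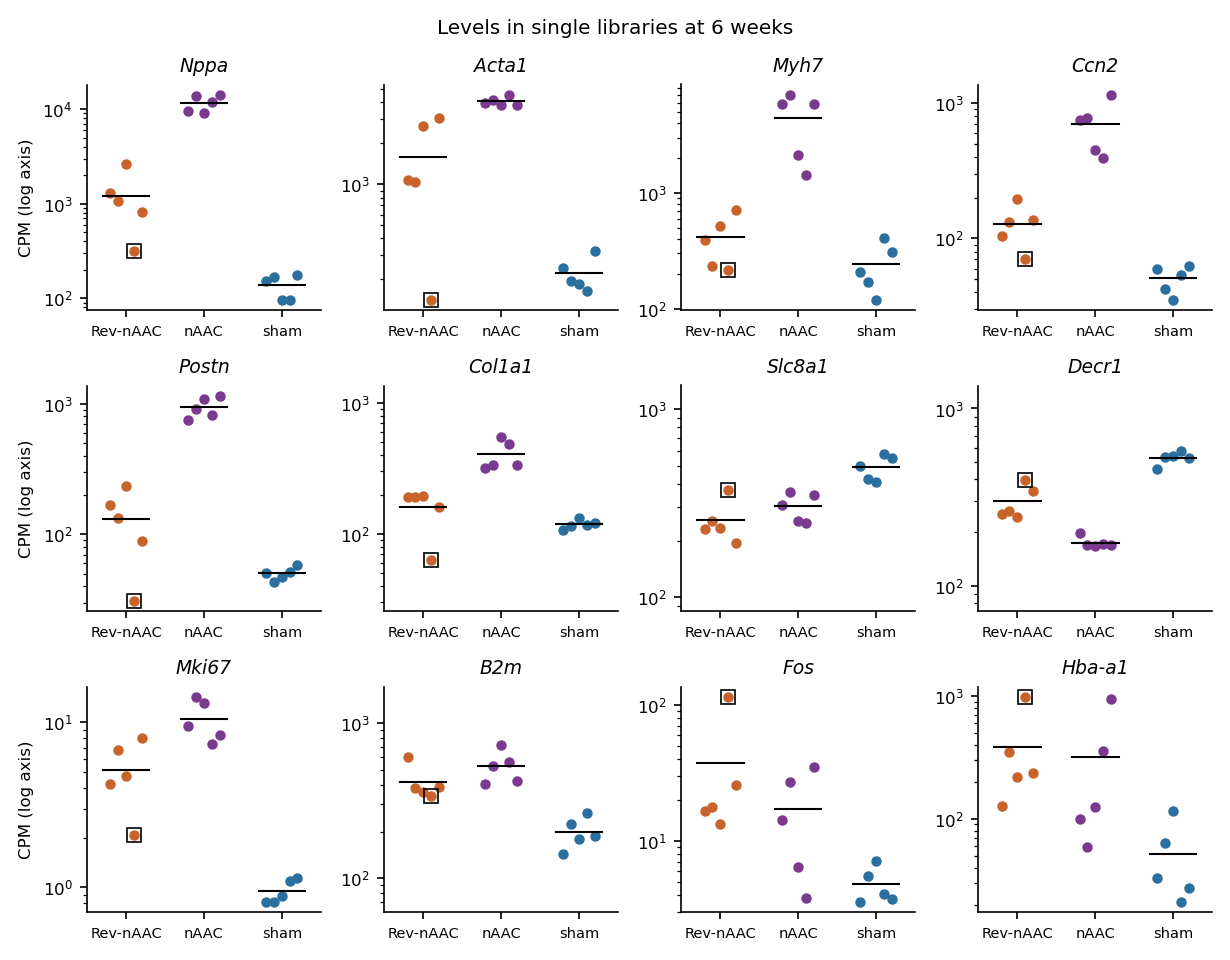
CPM on a log axis in each library for 12 genes, with Rev-nAAC left of nAAC and sham at 6 weeks; each point is a library, the horizontal line is the group mean and Rev-nAAC replicate 4 is framed by an open square. Nppa separated Rev-nAAC from sham in all 5 libraries, while Acta1 of replicate 4 lay below all sham libraries.

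Ion channel genes moved in the other direction. Of 28 tested, 17 fell and 2 rose, with a median of -0.56. Kcnj3, a subunit of the potassium channel opened by acetylcholine, was at 26.2, 29.8, 17.1, 57.8 and 23.6 CPM in Rev-nAAC and 80.8, 79.7, 70.4, 80.2 and 76.1 CPM in sham. The groups did not overlap and the log2 fold change was -1.33 ± 0.34 (adjusted p = 0.006). Its partner subunit Kcnj5 fell, at -0.88. The repolarizing channels Kcnh2 and Kcnq1 fell, at -0.80 and -0.57, the resting potassium channel Kcnj2 at -0.87 and Kcnd3, of the transient outward current, at -0.55. Gja1, which forms the gap junctions between ventricular myocytes, fell, at -0.68. The pacemaker channel Hcn4 fell too, at -1.15, while Kcnv2, a modifier of potassium channels, rose by 0.89. Leaving out each library in turn gave 8 to 18 lower, with 8 without Rev-nAAC replicate 5, 10 without replicate 1 or 2, and 11 without replicate 3 or sham replicate 1. The higher genes numbered 0 or 1 in each of these fits, and the call of Kcnv2 was lost in 13 of 21 alternatives, that of Hcn4 in 9 and that of Kcnd3 in 6. Gja1 and Kcnq1 lost theirs without Rev-nAAC replicate 5.

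Calcium handling genes followed: 9 of 28 fell and 2 rose. Slc8a1, the sodium-calcium exchanger, was at 229.8, 253, 235, 371 and 195 CPM in Rev-nAAC and 501, 423, 409.9, 574 and 548 CPM in sham, a log2 fold change of -0.94 ± 0.17 (adjusted p = 0.00022). The L-type channel genes Cacna1c and Cacnb2 fell, at -0.54 and -0.54, and Casq2 and Jph2, of the calcium store and its junction, at -0.49 and -0.40. Cacna1h, a T-type channel, fell, at -1.82 ± 0.28, with 3.81, 3.19, 2.87, 8.69 and 3.20 CPM in Rev-nAAC and 16.9, 21.5, 11.1, 10.2 and 16.9 CPM in sham. Atp2a2, the SERCA pump that refills the store, fell, at -0.39 ± 0.14 (adjusted p = 0.049), a call that was lost in 10 of the 21 alternative analyses of this comparison. Trpc6, a calcium-permeable channel of stressed myocytes, had few counts and was at 0.120, 0.361, 0.369, 0.278 and 0.175 CPM in Rev-nAAC against 0.0315, 0, 0.103, 0.0352 and 0.0345 CPM in sham, a rise of 2.59 ± 0.60 (adjusted p = 0.0027). In the list of the adult ventricle program 9 of 25 genes fell and 0 rose, with 14 lower without Rev-nAAC replicate 4 and with the 10 libraries alone, 3 to 5 without replicate 1, 2 or 3, and 5 without sham replicate 1 or 3. The fallers included Cav3, of the myocyte membrane's caveolae, at -0.35, Corin, the protease that activates the natriuretic peptides, at -0.50, and the glucose transporter Slc2a4 at -0.40. Of these named genes, calls were lost in 10 of 21 alternatives for Corin, 5 for Cav3, 4 for Cacnb2 and 3 for Cacna1c.

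Matrix genes were raised in 16 of 57 and lowered in 2, with a median of 0.44, and the raised set held 1 fibrillar collagen, Col11a1, at 2.73. Col1a1 was at 189.9, 193, 195, 62.8 and 160.2 CPM in Rev-nAAC and 108, 114, 132, 117 and 121 CPM in sham, with 0.43 ± 0.27 and an adjusted p of 0.29. Replicate 4 was the only Rev-nAAC library below the sham libraries. Col3a1 and Fn1 had 0.34 and 0.44, with adjusted p-values of 0.45 and 0.2. The microfibril and elastic fibre genes Fbln1, Fbln5, Mfap4, Eln and Ltbp2 rose by 0.82, 0.68, 1.71, 0.97 and 2.61. Fbln1, a fibulin of elastic fibres, was at 170.2, 132, 117, 78.1 and 92.7 CPM in Rev-nAAC and 68.5, 73.6, 71.7, 56.6 and 63.5 CPM in sham, without overlap (adjusted p = 0.00053). Col12a1, a collagen that sits on fibrils and is known from tendon, was at 15.4, 15.3, 23.7, 0.433 and 3.73 CPM in Rev-nAAC and 2.84, 2.77, 1.78, 2.15 and 2.59 CPM in sham, with replicate 4 below every sham library and a log2 fold change of 2.27 ± 0.62 (adjusted p = 0.011). The small proteoglycans Bgn and Dcn rose by 0.97 and 0.59, and P4ha1, an enzyme of collagen hydroxylation, by 0.97. Efemp1, another fibulin, fell, at -1.76 ± 0.51. Without replicate 4 the matrix genes higher numbered 25, and without replicate 3 they numbered 9. Calls were lost in 8 of 21 alternatives for Col11a1 and for Eln, and Col12a1, Dcn and Efemp1 lost theirs without Rev-nAAC replicate 3, sham replicate 1 and Rev-nAAC replicate 1 in that order.

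Genes of activated fibroblasts had a median of 1.24, with 9 of 20 higher and 2 lower. Thbs4, a matricellular thrombospondin, was at 59.4, 58.6, 127, 2.78 and 16.5 CPM in Rev-nAAC and 7.85, 7.88, 5.21, 4.30 and 8.53 CPM in sham, 2.97 ± 0.59 (adjusted p = 0.00071). Cilp, Comp, Meox1 and Aspn rose by 2.13, 1.98, 1.5 and 1.09. Postn, periostin, rose by 1.38 ± 0.47 (adjusted p = 0.037), with 167, 134, 233, 30.8 and 88.6 CPM in Rev-nAAC and 50.2, 43.4, 47.1, 51.4 and 58.4 CPM in sham. Its replicate 4 value was the lowest of all 10 libraries, and the call was lost in 10 of 21 alternatives. The 2 that fell were Acta2, the smooth muscle actin of myofibroblasts, at -1.08 ± 0.18, and Fap, a fibroblast protease, at -0.65 ± 0.17. Acta2 was at 91.6, 92.5, 86.3, 63.9 and 79.7 CPM in Rev-nAAC and 150.2, 128, 201, 174 and 219 CPM in sham, without overlap. Of 10 markers of fibroblasts at large, 6 rose, Gsn, Pi16, Tcf21, Dpt, Dcn and Pdgfra, and their summed level was 4457, 4481, 4068, 2708 and 4033 CPM in Rev-nAAC against 2167, 2805, 2927, 2409.8 and 2672 CPM in sham (exact permutation p = 0.024, adjusted over 15 marker lists 0.040). Replicate 4 lay inside the sham range of that sum, and 2 or 3 of the 10 markers were higher without Rev-nAAC replicate 1 or 2 or sham replicate 1 or 4. Pi16, Dpt and Pdgfra lost their calls in 9, 8 and 7 of 21 alternatives, Comp in 5, and Aspn without Rev-nAAC replicate 2. In such bulk tissue more cells of a type and more RNA per cell cannot be told apart.

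Tendon and cartilage genes were raised in 6 of the 11 tested of 15, led by Tnmd, tenomodulin, at 3.96, 2.74, 7.25, 0.0309 and 0.728 CPM in Rev-nAAC and 0.0315, 0.130, 0, 0.0704 and 0.173 CPM in sham, and by Thbs4, Col11a1, Comp, Col9a2 and Scx. Without Rev-nAAC replicate 3 or sham replicate 3, 2 and 3 of the 11 were higher, and with the 10 libraries alone 3. Of 31 tested TGF-beta and BMP genes, 9 rose and 1 fell, with 5 higher without sham replicate 1. The ligand Tgfb2 rose by 0.72 ± 0.25 (adjusted p = 0.042; lost in 10 of 21 alternatives), and Bmp4 and Tgfb3 by 0.72 and 0.57. The feedback inhibitors rose with them: Fstl3, an activin-binding protein, by 1.26 ± 0.29, Smad6 by 0.63 and Smad7 by 0.55. Id2 and Id3, targets of BMP signalling, rose by 0.75 and 0.54, and the co-receptor Tgfbr3 fell, at -0.41, a call lost in 11 of 21 alternatives and with any library but Rev-nAAC replicate 4 left out. Smad7, Scx and Tgfb3 lost theirs in 8, 8 and 7 alternatives, Id2 without Rev-nAAC replicate 2 and Col9a2 without Rev-nAAC replicate 3. Timp1, an inhibitor of matrix proteases, had 0.10 and was not called (adjusted p = 0.92).

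Genes of fat and sugar use were lower together. Of 37 fatty acid oxidation genes 15 fell and 2 rose, of 33 glucose genes 12 fell, and of 19 citric acid cycle genes 11 fell, with medians of -0.33, -0.23 and -0.28. Without Rev-nAAC replicate 1, 7 citric acid cycle genes were lower. None of the glucose or citric acid cycle genes was called higher. The beta-oxidation enzymes Decr1, Acaa2, Hadha and Acadvl fell, at -0.81, -0.67, -0.60 and -0.56. Decr1, which handles unsaturated fatty acids, was at 253, 263, 244, 396 and 342 CPM in Rev-nAAC and 454, 529, 536, 576 and 523 CPM in sham, without overlap (-0.81 ± 0.13, adjusted p = 4.6e-05).

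Pdk4 and Angptl4, which rise in fasting and with fatty acid supply, went the other way. Pdk4, the kinase that shuts the pyruvate dehydrogenase complex, was at 104, 151, 99.1, 181 and 1431 CPM in Rev-nAAC and 83.6, 77.1, 75.2, 75.9 and 85.2 CPM in sham, 2.31 ± 0.64 (adjusted p = 0.012). Angptl4, an inhibitor of lipoprotein lipase, was at 4.38, 3.79, 1.05, 4.21 and 32.6 CPM in Rev-nAAC and 1.17, 2.61, 2.5, 1.20 and 1.10 CPM in sham. In both genes replicate 5 of Rev-nAAC was far above the other libraries. Without that library neither gene was called. Hexokinases Hk1 and Hk2 fell, at -0.48 and -0.63, Pdp1, the phosphatase that opposes Pdk4, at -0.72, and Gapdh at -0.48. In the citric acid cycle Sdha, Ogdh and Cs fell, at -0.42, -0.36 and -0.38. Ppargc1a, the coactivator of mitochondrial genes, was at 61.7, 61.6, 55.4, 109 and 55.3 CPM in Rev-nAAC and 111, 105, 96.7, 106 and 113 CPM in sham, -0.63 ± 0.33 with an adjusted p of 0.19, and Cpt1b, the gate of fatty acid entry, had 0.25 (adjusted p = 0.66). Ogdh lost its call without Rev-nAAC replicate 1.

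The count of nuclear respiratory chain genes depended on the libraries used. Of 75, 7 fell and 0 rose, with a median of -0.13, a share of 9.33% against the 8.39% of all genes called lower. Without Rev-nAAC replicate 1 there were 4, or 5.33% against 5.51% of all genes. Without replicate 4 there were 14, or 18.7% against 11.0%, and in males alone 18, or 24% against 10.4%. The 7 included Ndufs1 at -0.37, Ndufa9 at -0.36 and Atp5b at -0.34. Of the 13 protein genes of mitochondrial DNA 6 fell, and 3 without Rev-nAAC replicate 5 or sham replicate 3 or 4. ND5, of complex I, was at 27608, 26902, 23247, 31428 and 22383 CPM in Rev-nAAC and 38589, 38454, 44370.0, 42816 and 49523 CPM in sham, without overlap (-0.70 ± 0.16, adjusted p = 0.0019), and COX1, of complex IV, fell, at -0.41 ± 0.09. ND2, also of complex I, had -0.19 and was not called (adjusted p = 0.59). Cytosolic ribosomal protein genes barely moved: 1 of 55, Rps12, was called, at 0.36, and that call was lost in 9 of 21 alternatives. Proteolysis and autophagy genes held 6 higher and 2 lower of 34, with the autophagy receptor Sqstm1 at 0.56, and 2 or 3 were higher without Rev-nAAC replicate 3 or 5 or sham replicate 1 or 4.

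**Figure D3:**
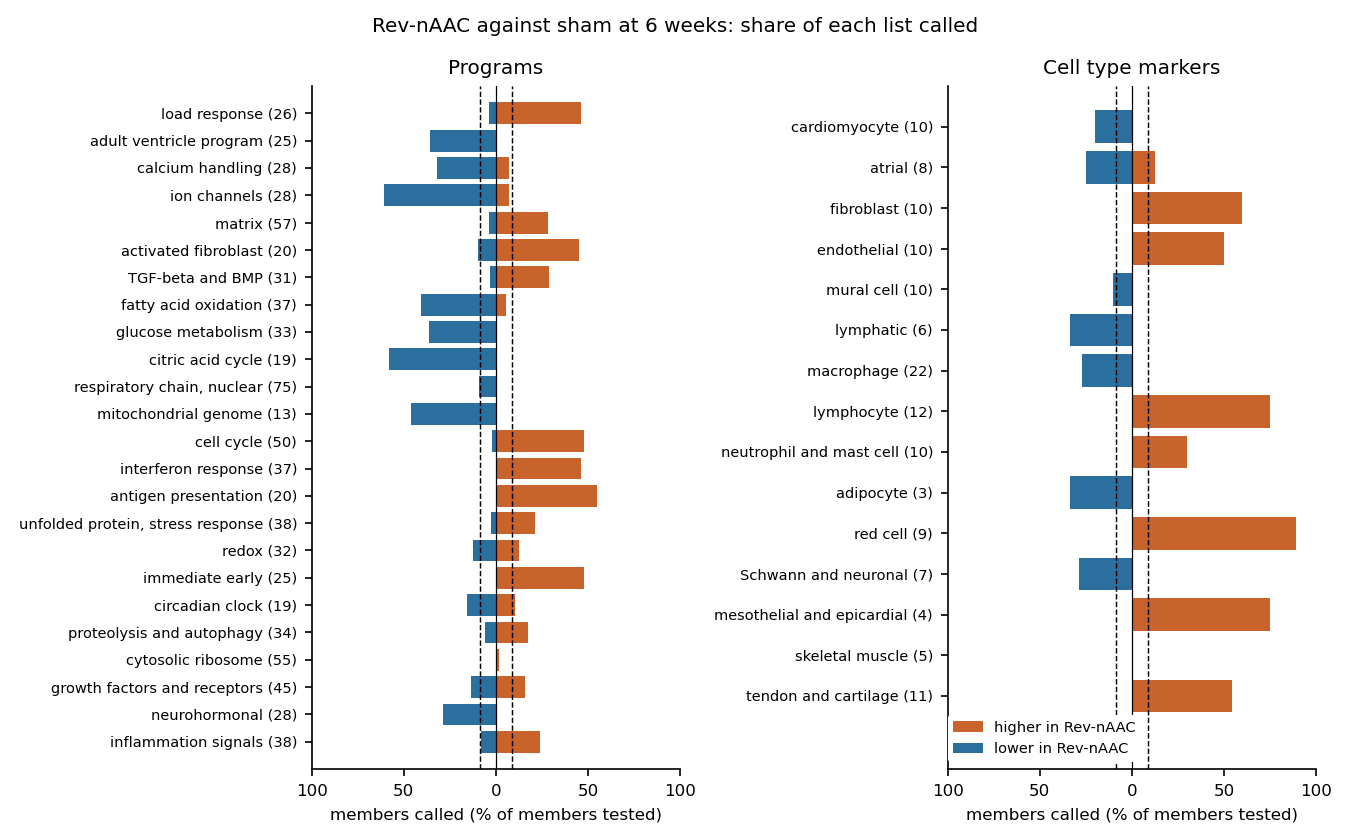
Percent of tested members of each of 39 gene lists called higher (to the right of 0) and lower (to the left) in Rev-nAAC against sham at 6 weeks, one row per list; the dashed lines mark the 8.66% and 8.39% of all tested genes called in each direction. Among the program lists, ion channels, the citric acid cycle and the mitochondrial genome reached furthest to the left, and antigen presentation, cell cycle, immediate early and load response genes furthest to the right.

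Cell cycle genes were among the clearest rises. Of 50, 24 rose and 1 fell, with a median of 1.13. Mki67, a marker of every cycling cell (chr7:135689784-135716450), was at 4.23, 6.77, 4.75, 2.07 and 7.98 CPM in Rev-nAAC and 0.820, 0.814, 0.891, 1.09 and 1.14 CPM in sham, without overlap, and rose by 2.44 ± 0.63 (adjusted p = 0.0065). Ccnb1, the cyclin that drives entry into mitosis, was at 0.690, 0.843, 0.483, 0.124 and 0.524 CPM in Rev-nAAC and 0.0315, 0, 0.0343, 0 and 0.0690 CPM in sham. Ube2c, a ubiquitin-conjugating enzyme of the complex that ends mitosis, was at 0.840, 0.873, 0.938, 1.70 and 1.69 CPM in Rev-nAAC and 0.252, 0.195, 0.0686, 0.106 and 0.173 CPM in sham and rose by 2.88 ± 0.52 (adjusted p = 0.00019). Cdc20, an activator of the same complex, rose by 1.79 ± 0.36, with 1.35, 1.90, 1.28, 1.24 and 1.98 CPM in Rev-nAAC and 0.252, 0.228, 0.549, 0.634 and 0.587 CPM in sham. Others past the threshold were Ccna2 at 2.54, Prc1 at 2.62, Top2a at 2.18 and Birc5 at 2.08. The replication genes Mcm3 and Mcm6 rose by only 0.46 and 0.42.

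Cdkn1a, the p21 inhibitor of the cycle, rose with the mitotic genes, at 22.3, 29.2, 21.0, 57.0 and 41.8 CPM in Rev-nAAC and 10.3, 12.4, 12.4, 11.1 and 8.84 CPM in sham (1.64 ± 0.38, adjusted p = 0.0029). Cenpf, a kinetochore protein that normally follows the mitotic genes, was the member that fell. It was at 3.15, 3.16, 2.02, 9.10 and 3.09 CPM in Rev-nAAC and 33.0, 22.8, 17.1, 25.8 and 30.5 CPM in sham, -2.66 ± 0.42 (adjusted p = 4.1e-05), with replicate 4 the highest Rev-nAAC library. Cell cycle genes called higher numbered 29 without replicate 4 and 33 in males alone, 22 with the 10 libraries alone, and 17 to 22 with any other library of these groups left out, 17 without Rev-nAAC replicate 2. Top2a and Mcm3 each lost their call in 3 of 21 alternatives, and Mcm6 without Rev-nAAC replicate 1.

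The promoters of Ube2c, Cdc20 and Ccnb1 are shown as examples of risers that hold repeated CCAAT boxes, the sites of NF-Y in mitotic promoters. Of 21 called risers with a promoter in the table, 17 held CCAAT on either strand, 81.0%, against 37.4% of all promoters and 42.3% of those of tested genes. TTTGAA, the core of the cell cycle homology element, was in 12 of the 21, 57.1%, against 17.9% of all promoters and 14.8% of those of tested genes. Cell cycle genes that were not called were not compared, so neither share is tied to the change in Rev-nAAC. Capitals mark matches of either motif on either strand, and the Ube2c window held 6 CCAAT matches. The windows are chr2:164769679-164769978 on the plus strand for Ube2c, and on the minus strand chr4:118437294-118437593 for Cdc20 and chr13:100786437-100786736 for Ccnb1.
Ube2c: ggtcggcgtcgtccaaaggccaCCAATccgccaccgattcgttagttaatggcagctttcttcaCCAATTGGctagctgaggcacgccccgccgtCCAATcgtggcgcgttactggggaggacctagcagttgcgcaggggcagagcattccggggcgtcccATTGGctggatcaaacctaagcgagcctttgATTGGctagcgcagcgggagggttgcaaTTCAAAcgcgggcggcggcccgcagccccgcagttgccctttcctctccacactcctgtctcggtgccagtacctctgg
Cdc20: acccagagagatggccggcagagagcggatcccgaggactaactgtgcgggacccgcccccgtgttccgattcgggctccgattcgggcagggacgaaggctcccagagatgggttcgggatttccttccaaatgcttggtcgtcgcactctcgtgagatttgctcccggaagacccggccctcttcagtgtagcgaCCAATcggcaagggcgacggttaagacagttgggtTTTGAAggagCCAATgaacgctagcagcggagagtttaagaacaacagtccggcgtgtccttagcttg
Ccnb1: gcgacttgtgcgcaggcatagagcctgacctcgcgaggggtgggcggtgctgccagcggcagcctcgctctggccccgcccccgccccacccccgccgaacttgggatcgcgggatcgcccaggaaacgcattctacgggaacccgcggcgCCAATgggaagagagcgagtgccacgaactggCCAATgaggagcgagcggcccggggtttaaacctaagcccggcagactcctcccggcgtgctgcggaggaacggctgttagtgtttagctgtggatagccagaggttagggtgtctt

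The size of the cell cycle difference changed with age. In 4-week ventricles Mki67 averaged 10.8 ± 7.72 CPM in Rev-nAAC and 39.8 ± 8.53 CPM in sham. At 6 weeks it averaged 5.16 ± 2.30 CPM in Rev-nAAC and 0.951 ± 0.154 CPM in sham, and at 8 weeks 2.02 ± 2.99 CPM in Rev-nAAC and 3.28 ± 1.31 CPM in sham (SD, n = 5 each). Rev-nAAC was therefore below sham at 4 weeks and above it at 6 weeks, and the sham level at 6 weeks was the lowest of the 3 ages. The median log2 fold change of the 50 genes was -1.59 at 4 weeks, 1.13 at 6 weeks and -0.37 at 8 weeks. The difference at 6 weeks exceeded that at 4 weeks in 33 of 50 genes and was below it in 0, against 2.05% and 1.14% of all genes tested in those directions. It exceeded that at 8 weeks in 14 of 50 and was below it in 0, against 2.69% and 2.91% of all genes.

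Interferon-induced genes were modestly raised. Of 37 tested, 17 rose and 0 fell, with a median of 0.61. Rsad2, the antiviral protein viperin, was at 51.2, 41.3, 47.8, 44.3 and 25.2 CPM in Rev-nAAC and 16.8, 23.7, 18.4, 19.4 and 16.3 CPM in sham (1.15 ± 0.24, adjusted p = 0.0012). Ifi27, at 90.4, 42.5, 42.3, 34.6 and 39.8 CPM in Rev-nAAC and 19.0, 25.3, 24.3, 27.4 and 22.7 CPM in sham, rose by 1.07 ± 0.21, and its replicate 1 stood far above the other 4. Isg15, a ubiquitin-like protein, rose by 0.93 and Ifit3, which binds foreign RNA, by 0.93. Irf1, a transcription factor of the pathway, rose by 0.46. The library with the highest median of these genes was Rev-nAAC replicate 1, a female, at 1.07 above sham on the log2 scale. Without that library 5 of the 37 were higher, without sham replicate 1 there were 11, and with sex in the fit 13. Ifit3 and Irf1 lost their calls without Rev-nAAC replicate 1, and Isg15 lost its call in 12 of 21 alternatives.

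Class I antigen presentation genes moved with them, 11 of 20 higher and 0 lower, with a median of 0.69. B2m, the light chain of class I molecules, was at 604, 382, 359, 339.7 and 386 CPM in Rev-nAAC and 144, 223, 179, 262 and 187 CPM in sham, without overlap (1.06 ± 0.20, adjusted p = 0.00032). H2-K1 and H2-D1, the heavy chains, rose by 0.92 and 0.84, values that are uncertain because close copies of H2 genes can share reads. The immunoproteasome subunits Psmb8 and Psmb9 rose by 0.74 and 0.86, and the activator Nlrc5 by 1.15. Without replicate 1, the highest library for these genes too, 7 of the 20 were higher. Psmb8 lost its call without that library, and Nlrc5 lost its call in 6 of 21 alternatives.

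The promoter of Rsad2 (chr12:26456403-26456702, minus strand) is shown because it carries a core of the element bound by interferon-activated factors: 2 GAAA half-sites with any 2 bases between them, searched on both strands. The match is in capitals. Of 13 called interferon genes with a promoter, 6 held it, 46.2%, against 3.44% of all promoters and 3.84% of those of tested genes. Interferon genes that were not called were not compared.
Rsad2: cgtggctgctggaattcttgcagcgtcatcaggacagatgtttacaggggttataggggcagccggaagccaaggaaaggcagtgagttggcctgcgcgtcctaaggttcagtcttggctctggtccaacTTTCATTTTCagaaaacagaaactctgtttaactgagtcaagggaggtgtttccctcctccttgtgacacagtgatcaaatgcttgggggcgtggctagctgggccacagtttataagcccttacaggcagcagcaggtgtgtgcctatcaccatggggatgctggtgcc

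Lymphocyte markers were raised in 9 of 12 and lowered in 0, with a median of 2.33, all at low counts. Cd3e, of the T cell receptor complex, was at 0.300, 0.271, 0.171, 0.217 and 0.175 CPM in Rev-nAAC and 0, 0.0326, 0.0343, 0.0704 and 0 CPM in sham, 2.91 ± 0.88 (adjusted p = 0.019). Cd79b, of the B cell receptor, was at 2.37, 1.56, 1.99, 1.67 and 0.815 CPM in Rev-nAAC and 0.441, 0.195, 0.240, 0.528 and 0.725 CPM in sham, and the B cell marker Ms4a1 rose by 3.20. The groups did not overlap in Cd3e or Cd79b, and the summed level of the list was 16.3, 10.5, 11.5, 8.6 and 6.55 CPM in Rev-nAAC against 1.95, 3.03, 2.06, 2.11 and 2.62 CPM in sham (adjusted p = 0.017 by exact permutation). The count was 10 without replicate 4 and 9 in males alone, but 6 with the 10 libraries alone and as low as 7 with a single library left out. Cd3e lost its call without sham replicate 1 and with the 10 libraries alone.

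Macrophage markers did not follow. Of 22, 0 rose and 6 fell, with a median of -0.17. The genes that fell included markers of resident macrophages: Timd4 at -1.38 ± 0.39, Lyve1, also on the lymphatic list, at -1.05 ± 0.33, Mrc1 at -0.79 ± 0.20 and Cd163 at -0.72. Timd4, a receptor for dying cells, was at 1.77, 1.14, 0.426, 1.27 and 1.22 CPM in Rev-nAAC and 2.33, 3.75, 3.39, 2.64 and 3.11 CPM in sham. Itgam and Csf1r, carried by macrophages in general, fell, at -0.92 and -0.55. The summed level of the list had an exact permutation p of 0.33, and 3 of the 22 were lower without Rev-nAAC replicate 3. Inflammatory signals were mixed, 9 of 38 higher and 3 lower, with 4 and 5 higher without Rev-nAAC replicate 1 and without sham replicate 4, and 5 with sex in the fit. The chemokine Ccl5 rose by 2.43 ± 0.67, with 3.03, 0.692, 0.597, 0.928 and 0.990 CPM in Rev-nAAC and 0.126, 0.489, 0.103, 0.422 and 0 CPM in sham. Ccl11, an eosinophil attractant, fell, at -2.61 ± 0.59, and Il1rl1, the interleukin 33 receptor, at -1.10 ± 0.29. Cd163 and Lyve1 lost their calls in 9 and 3 of 21 alternatives, Csf1r without Rev-nAAC replicate 3 and Ccl5 without Rev-nAAC replicate 1. The neutrophil genes S100a8 and S100a9 were called higher, calls lost in 14 and 9 alternatives, among them those without replicate 4 and without replicate 1. S100a9 was at 8.55, 2.95, 1.88, 10.7 and 1.83 CPM in Rev-nAAC and 0.504, 0.944, 0.926, 0.0704 and 0.483 CPM in sham, highest in those same replicates.

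Immediate early genes, which answer within minutes to stretch, growth factors and tissue handling, rose in 12 of 25 and fell in 0, with a median of 0.73. Fos was at 16.4, 17.6, 13.3, 114 and 25.6 CPM in Rev-nAAC and 3.53, 5.50, 7.13, 4.05 and 3.69 CPM in sham, 2.97 ± 0.74 (adjusted p = 0.0051). Egr1 was at 71.0, 106, 73.2, 213 and 53.2 CPM in Rev-nAAC and 31.0, 44.9, 45.6, 23.5 and 19.7 CPM in sham, and Zfp36, which destabilizes cytokine mRNA, at 30.1, 40.2, 28.8, 145 and 35.5 CPM in Rev-nAAC and 19.2, 18.6, 17.9, 20.2 and 25.0 CPM in sham. Replicate 4 was the highest library in each of these genes. Without it 6 of 25 were higher, and Fos kept its call while Zfp36, Egr1 and Fosb lost theirs. Egr1 and Fosb lost their calls in 8 and 9 of 21 alternatives. Without sham replicate 1, 7 were higher.

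Red cell genes behaved alike. Of 9 tested 8 rose, and 4 did so without replicate 4. Hba-a2, an alpha globin, was at 42.9, 119, 76.3, 347 and 80.8 CPM in Rev-nAAC and 7.25, 17.9, 34.0, 5.53 and 8.91 CPM in sham, 3.18 ± 0.78 (adjusted p = 0.0049), values that are uncertain because the alpha globin copies share sequence. Slc4a1, the anion exchanger of the red cell membrane, had the largest rise among genes of at least 2 CPM whose groups did not overlap, 5.06 ± 1.40, at 0.690, 1.23, 0.540, 12.3 and 0.495 CPM in Rev-nAAC and 0.0315, 0.0977, 0.171, 0.0704 and 0.0690 CPM in sham, and lost its call without replicate 4. Alas2, the first enzyme of haem synthesis in red cells, was at 17.5, 54.1, 28.9, 177 and 31.4 CPM in Rev-nAAC and 3.94, 8.6, 15, 3.38 and 4.80 CPM in sham and kept its call. The globin genes together took up to 0.409% of counts, in replicate 4. The part of these transcripts in other results was not tested.

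**Figure D4:**
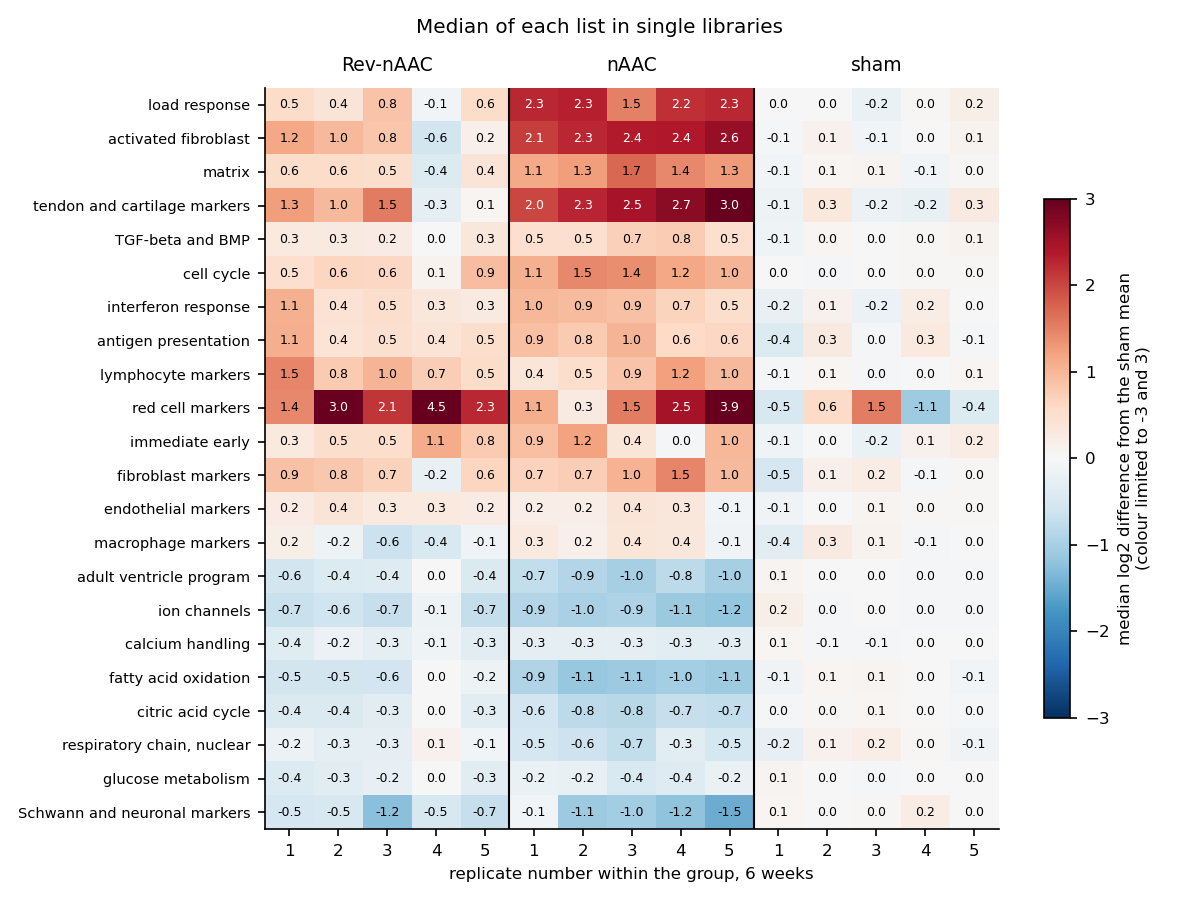
Median log2 difference from the sham mean over the members of each of 22 lists, computed from log2(CPM + 0.5), for each of the 5 Rev-nAAC, 5 nAAC and 5 sham libraries at 6 weeks; rows are lists, columns are libraries and colour and the printed value are the median. Rev-nAAC replicate 4 was near 0 for load response, fatty acid oxidation and cell cycle genes and high for red cell and immediate early genes, and replicate 1 was highest for interferon and antigen presentation genes.

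By library, the load response genes had medians of 0.55, 0.39, 0.85, -0.07 and 0.56 in Rev-nAAC replicates 1 to 5 and 0.01, 0.02, -0.19, 0.03 and 0.18 in sham. Matrix genes had 0.56, 0.56, 0.54, -0.41 and 0.38 in Rev-nAAC and -0.08, 0.06, 0.09, -0.09 and 0.03 in sham. Replicate 4 lay inside the sham range of the load response and below that of the matrix genes, and the other 4 Rev-nAAC libraries were above sham in both. Cell cycle genes had 0.50, 0.64, 0.62, 0.11 and 0.93 in Rev-nAAC and 0.01, -0.04, -0.02, 0.04 and 0.04 in sham. Red cell genes had 1.44, 2.96, 2.15, 4.52 and 2.27 in Rev-nAAC and -0.47, 0.57, 1.53, -1.06 and -0.41 in sham, with replicate 4 the highest. Why 1 library of 5 lay closer to sham in most programs was not tested.

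Clock genes were split. The output repressor Ciart was at 2.61, 0.752, 4.69, 4.76 and 1.28 CPM in Rev-nAAC and 13.6, 10.6, 6.72, 11.6 and 18.3 CPM in sham and fell, at -2.11 ± 0.42 (adjusted p = 0.0007), Cry2 and Bhlhe41 fell, at -0.53 and -0.50, and Bmal1, the activator of the clock, rose by 1.71 ± 0.48 (adjusted p = 0.011) together with Nfil3, at 0.83. Bmal1 was at 2.37, 23.2, 4.04, 8.85 and 28.4 CPM in Rev-nAAC and 3.06, 5.76, 5.79, 3.34 and 2.42 CPM in sham, so 2 Rev-nAAC replicates, 2 and 5, were far above and replicates 1 and 3 within or below the sham range. Ciart was higher in Rev-nAAC than in sham at 4 weeks, averaging 3.26 ± 2.26 CPM in Rev-nAAC and 0.924 ± 0.130 CPM in sham, and lower at 6 weeks, a change of -3.92 ± 0.62 between the ages (adjusted p = 0.00025). In 7 of 19 clock genes the 6-week difference was below the 4-week difference, and in 2 above it. In males alone 4 of the 19 clock genes were higher and 7 lower, without Rev-nAAC replicate 5 0 were higher, and the calls of Bmal1 and Nfil3 were lost in 3 and 5 of 21 alternatives. Bhlhe41 lost its call without Rev-nAAC replicate 2 or 5. The labels give no hour of tissue collection. Ciart's promoter (chr3:95882179-95882478, minus strand) is shown for its 3 E-boxes, CACGTG in capitals, the site of BMAL1 and CLOCK. Of the 3 clock genes that fell 2 held one, against 7.15% of all promoters and 11.3% of those of tested genes. Clock genes that did not fall were not compared.
Ciart: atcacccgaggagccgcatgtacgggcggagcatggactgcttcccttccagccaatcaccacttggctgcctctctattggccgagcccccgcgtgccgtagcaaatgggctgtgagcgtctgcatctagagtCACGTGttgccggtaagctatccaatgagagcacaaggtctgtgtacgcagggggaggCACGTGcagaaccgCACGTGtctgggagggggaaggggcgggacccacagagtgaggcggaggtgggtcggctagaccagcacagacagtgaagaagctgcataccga

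Several receptors for circulating and nerve signals fell, though their list as a whole did not lie below sham. In the neurohormonal list 8 of 28 tested genes fell and 0 rose, with a median of 0.06 against 0.02 over all genes, and with 4 or 5 lower without Rev-nAAC replicate 1, 2 or 3 or sham replicate 1, 2 or 4. Agtr1a, the angiotensin II receptor, was at 17.7, 19.0, 14.8, 38.3 and 21.5 CPM in Rev-nAAC and 49.2, 39.4, 41.3, 55.0 and 48.4 CPM in sham, without overlap (-1.07 ± 0.22, adjusted p = 0.00082). Nr3c2, the mineralocorticoid receptor, fell, at -0.82 ± 0.19, the beta1 adrenergic receptor Adrb1 at -0.63, and the alpha1 receptors Adra1a, Adra1b and Adra1d at -1.26, -0.69 and -0.73. Of 7 tested Schwann cell and neuronal markers 2 fell, and 4 or 5 did with sex in the fit, in males alone and with the 10 libraries alone: Dbh, the enzyme that makes noradrenaline, was at 1.53, 1.05, 1.14, 2.54 and 0.757 CPM in Rev-nAAC and 5.33, 5.24, 4.70, 3.87 and 4.14 CPM in sham (-1.73 ± 0.35, adjusted p = 0.00076), and Gfra3, a receptor of sensory and sympathetic neurons, fell, at -2.0 ± 0.52. Adra1b and Adra1d lost their calls in 9 and 7 of 21 alternatives, and Adrb1 without Rev-nAAC replicate 2.

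Growth factors and their receptors held 7 higher and 6 lower of 45, with 11 higher without Rev-nAAC replicate 4 and 13 in males alone. The largest falls were Angpt1, the ligand that steadies vessels through Tie2, at -1.55 ± 0.28, Fgf16, a cardiomyocyte FGF, at -1.17 ± 0.23, and the fetal growth factor Igf2, at -1.11 ± 0.23. Angpt1 was at 7.23, 11.7, 7.05, 22.1 and 12.5 CPM in Rev-nAAC and 34.4, 31.5, 32.2, 47.3 and 31.6 CPM in sham, without overlap (adjusted p = 0.00027), while Angpt2, its antagonist, rose by 0.80 ± 0.19, at 6.27, 7.28, 7.16, 5.72 and 5.18 CPM in Rev-nAAC and 4.07, 2.70, 4.35, 3.59 and 3.49 CPM in sham. Erbb4, the neuregulin receptor of cardiomyocytes, fell, at -0.76. Igfbp6 and Igfbp7, which bind insulin-like growth factors, rose by 1.38 and 0.75, and Osmr, the oncostatin M receptor, by 0.49. Il11, a fibroblast cytokine, rose by 1.93 but was at 0.120, 0.271, 0.227, 0.0619 and 0.262 CPM in Rev-nAAC and 0.0315, 0.0326, 0.0343, 0.0352 and 0.104 CPM in sham, close to the lowest levels the libraries can show. Its call was lost in 9 of 21 alternatives, and that of Erbb4 in 3.

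Stress genes were moved in part. Of 38 tested genes of the unfolded protein and integrated stress responses, 8 rose and 1 fell, with 14 higher in males alone and with the 10 libraries alone. Mthfd2, a mitochondrial enzyme of the folate cycle and a target of ATF4, was at 4.83, 2.53, 6.54, 2.69 and 2.68 CPM in Rev-nAAC and 1.48, 1.60, 0.891, 1.90 and 1.38 CPM in sham (1.41 ± 0.28, adjusted p = 0.00054), and Atf4 itself rose by 0.37. The amino acid transporter Slc7a5 and the chaperone-related Creld2 rose by 0.72 and 0.70. Redox genes held 4 higher and 4 lower of 32, with a median of 0.03. That is 25% called in either direction, against 17.1% of all genes tested. There were 1 and 2 lower without Rev-nAAC replicates 2 and 1, and 2 higher without Rev-nAAC replicate 5 or sham replicate 1. Nox4, an NADPH oxidase, was at 2.19 ± 0.46 and the mitochondrial superoxide dismutase Sod2 at -0.34. Atf4 and Sod2 each lost their call in 2 of 21 alternatives, and Creld2 without Rev-nAAC replicate 3.

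Cell type markers moved apart from each other. Endothelial markers rose in 5 of 10, and in 3 without Rev-nAAC replicate 3, with Cldn5, of endothelial tight junctions, at 1.07 ± 0.25 and 24.1, 42.0, 21.8, 30.2 and 49.6 CPM in Rev-nAAC against 13.5, 18.9, 17.3, 15.7 and 14.6 CPM in sham. Lymphatic markers fell in 2 of 6, Prox1 and Lyve1, which is also on the macrophage list, but the list had a median of 0.18. In males alone and without Rev-nAAC replicate 4, 1 of the 6 was higher. Of 10 mural cell markers 1 fell, Acta2. Of 10 cardiomyocyte markers 2 fell, Actc1 at -0.37 and Tnnt2 at -0.38, calls lost in 8 and 9 of 21 alternatives, while 4 fell with the 10 libraries alone, and the summed level of the 10 had an exact permutation p of 0.0079 (0.017 adjusted). Among 8 tested atrial markers Nppa rose and Tbx5 and Stard10 fell, the call of Stard10 being lost in 8 of 21 alternatives, while Sln and Myl7 had -6.91 and -6.86 without being called (adjusted p = 0.078 and 0.053), and sham replicate 2 held most of their sham counts. Of the 10 mesothelial and epicardial markers 4 were tested and 3 rose, Krt8, Krt18 and Tbx18. Krt18, a keratin that stressed cardiomyocytes also make, was at 2.76, 2.08, 4.80, 0.155 and 1.92 CPM in Rev-nAAC and 0.252, 0.130, 0.411, 0.458 and 0.483 CPM in sham. Of 5 tested skeletal muscle markers 0 were called, of 10 tested neutrophil and mast cell markers 3 rose and 0 did with sex in the fit, and of 3 tested adipocyte markers Cidea fell, a call lost in 14 of 21 alternatives.

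Several of the largest changes were in genes of no list. Edn3, an endothelin, was at 3.0, 3.88, 9.29, 1.21 and 6.61 CPM in Rev-nAAC and 0.473, 0.619, 0.309, 0.317 and 0.552 CPM in sham and rose by 3.39 ± 0.44 (adjusted p = 4.1e-06), with no overlap and no alternative in which the call was lost. Aqp4, a water channel known from brain and muscle, was the largest fall among genes of at least 2 CPM whose groups did not overlap, -3.08 ± 0.45 (adjusted p = 1.4e-05), at 0.900, 0.692, 0.0853, 2.35 and 0.844 CPM in Rev-nAAC and 9.30, 7.07, 11.1, 6.65 and 7.11 CPM in sham. Drd2, a dopamine receptor, fell, at -1.91 ± 0.38, Tll2, a tolloid-like protease, at -1.88 ± 0.42, and Grhl2, a factor of epithelial genes, at -1.83 ± 0.50. Ubxn10, Tlcd4 and Sv2a, a synaptic vesicle protein, fell, at -2.27, -2.01 and -1.8. In Tlcd4 and Cacna1h the highest Rev-nAAC library was replicate 4, well above the other 4 and still below sham.

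The lasting constriction differed from sham in more genes than the reversible one did. At 6 weeks 4002 of 15444 genes differed between Rev-nAAC and nAAC, 25.9%, with 2136 higher in Rev-nAAC, 13.8%, and 1866 lower, 12.1%. Between nAAC and sham 7453 differed, 48.3%, with 3779 higher in nAAC, 24.5%, and 3674 lower, 23.8%. By Xist and the Y-linked genes 4 of 5 nAAC libraries were female, against 2 of 5 in Rev-nAAC and 0 of 5 in sham, so sex also differed between the groups. With sex in the fit 6976 genes were called between nAAC and sham, and 6627 of the 7453 kept their call. Between Rev-nAAC and nAAC 4205 were called with sex in the fit, and 3821 of the 4002 kept their call. The 3 comparisons share libraries, so they are given side by side. Nppa averaged 1218 ± 854 CPM in Rev-nAAC, 11726 ± 2319 CPM in nAAC and 137 ± 39.0 CPM in sham (SD, n = 5 each). Load response genes had a median of 0.84 in Rev-nAAC over sham and 2.58 in nAAC over sham, and 20 of 26 were lower in Rev-nAAC than in nAAC and 1 higher. The nuclear respiratory chain genes were lower in nAAC than in sham in 71 of 75, and 62 were higher in Rev-nAAC than in nAAC. Kcnj3 was at 15.6, 5.22, 5.39, 4.77 and 2.94 CPM in nAAC, below each of its Rev-nAAC values given above. In nAAC replicate 1, the highest of these, the atrial markers had a median of 3.87 above sham on the log2 scale. The other nAAC libraries had -1.62 to -0.12. The part of atrial transcripts in the nAAC results was not tested.

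Genes that differed most between Rev-nAAC and nAAC included Ano5, a muscle membrane protein, at 0.870, 4.87, 2.59, 1.36 and 5.21 CPM in Rev-nAAC, 0.101, 0.107, 0.0842, 0.235 and 0.0280 CPM in nAAC and 0.820, 1.40, 0.480, 0.493 and 0.759 CPM in sham, 4.71 ± 0.56 over nAAC (adjusted p = 1.4e-07). Inmt, an N-methyltransferase, and Ces1d, a carboxylesterase, were higher than in nAAC by 4.20 and 3.66. Sprr1a, a stress protein of cardiomyocytes, was at 0.330, 0.150, 0.142, 0 and 0.0582 CPM in Rev-nAAC, 6.98, 11.2, 4.80, 4.77 and 9.96 CPM in nAAC and 0.0315, 0.0326, 0, 0.211 and 0.0345 CPM in sham, -5.75 ± 0.82 over nAAC (adjusted p = 2.6e-06). Nmrk2, a kinase of the NAD salvage route, was lower than in nAAC, at -4.25, and Chil1, a chitinase-like protein, at -4.40. The genes called against both other groups in the same direction were not counted, and Tfrc is given as an example of them. Tfrc, the transferrin receptor, was at 80.1, 64.3, 67.9, 136 and 39.5 CPM in Rev-nAAC, 113, 196, 129, 192 and 155 CPM in nAAC and 285, 216, 305, 269 and 212 CPM in sham, with log2 fold changes of -1.02 ± 0.27 over nAAC and -1.73 ± 0.28 over sham (adjusted p = 0.0046 and 4.6e-05). Replicate 4 was the only Rev-nAAC library above the lowest nAAC library. Tfrc was picked after its values were seen.

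**Figure D5:**
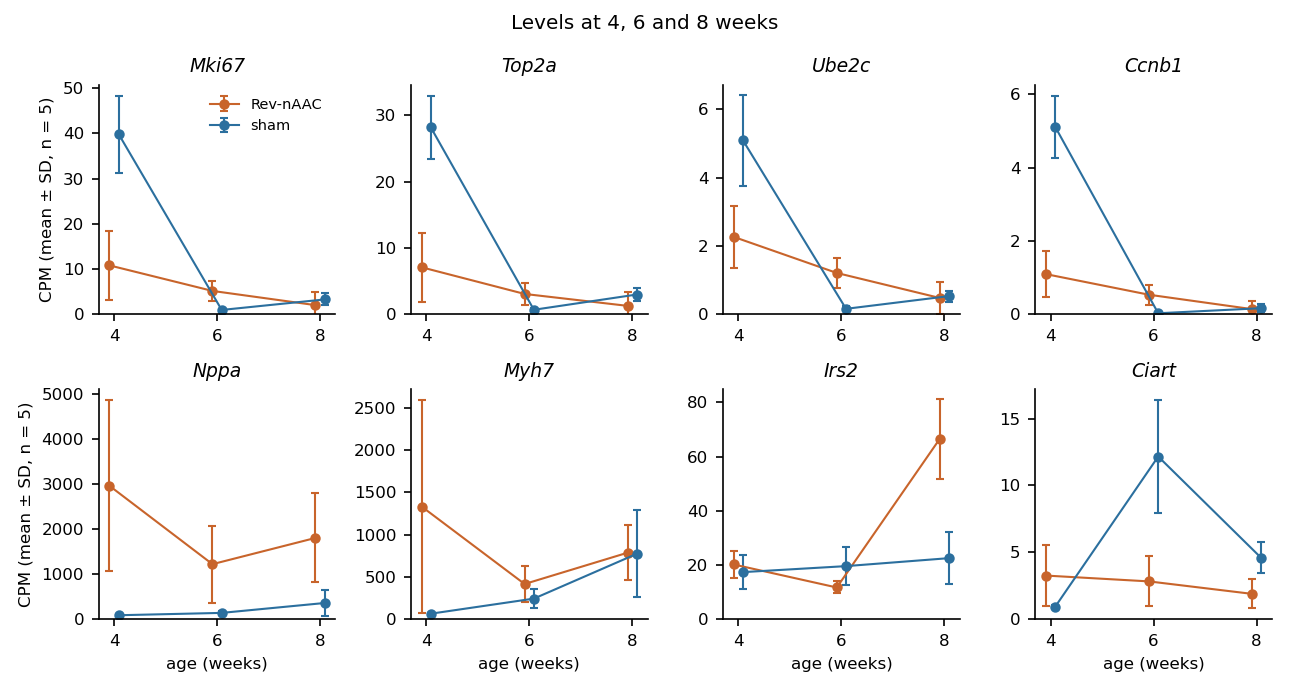
Mean CPM of 8 genes (vertical axis, from 0) against age in weeks, with Rev-nAAC and sham as separate lines; points are means of 5 libraries and bars their SD. Mki67 and the mitotic genes Top2a, Ube2c and Ccnb1 had lower means in Rev-nAAC than in sham at 4 weeks and higher ones at 6 weeks, Nppa had higher means in Rev-nAAC at all 3 ages, Irs2 had its highest mean in Rev-nAAC at 8 weeks, and the 6-week sham mean of Ciart stood above those of the other ages.

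The difference between Rev-nAAC and sham was not the same at 4, 6 and 8 weeks. It changed between 4 and 6 weeks in 492 genes, 3.19%, with the signed log2 difference higher at 6 weeks in 316 and lower in 176. It changed between 6 and 8 weeks in 864, 5.59%, with 415 higher at 6 weeks and 449 lower. Of 5 Rev-nAAC libraries 4 were female at 8 weeks, all but replicate 5, against 2 at 6 weeks and 2 at 4 weeks, while 0 sham libraries were. The sex of the Rev-nAAC libraries thus also changed from 6 to 8 weeks. With sex in the fit 664 genes were called between 6 and 8 weeks, and 636 of the 864 kept their call. Between 4 and 6 weeks 489 of the 492 kept theirs. The count of 864 moved with single libraries, to 2076 without 8-week Rev-nAAC replicate 5 and to 415 without 8-week Rev-nAAC replicate 4. The mitotic genes Ccnb1, Depdc1a, Hmmr, Nuf2, Bub1 and Melk led the increases over 4 weeks, and Myh7 and several stress genes were among the largest decreases. Myh7 averaged 1334 ± 1262 CPM in Rev-nAAC and 63.9 ± 5.01 CPM in sham at 4 weeks, and 416 ± 209 CPM in Rev-nAAC and 243 ± 116 CPM in sham at 6 weeks, a change of -3.61 ± 0.71 in the log2 difference (adjusted p = 0.0023). Nmrk2, Lcn2, an iron-binding protein of inflammation, and Serpina3n, a protease inhibitor of the acute phase, changed by -5.07, -4.49 and -3.18.

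Against 8 weeks, the fibrillar collagens Col1a1 and Col3a1 had the higher log2 difference at 6 weeks. Col1a1 averaged 160.2 ± 56.3 CPM in Rev-nAAC and 119 ± 8.94 CPM in sham at 6 weeks, and 70.6 ± 31.9 CPM in Rev-nAAC and 146 ± 41.6 CPM in sham at 8 weeks, 1.49 ± 0.39 (adjusted p = 0.02). Col3a1 and Timp1 had 1.45 and 2.36. Irs2, an adaptor of the insulin receptor, averaged 11.7 ± 2.22 CPM in Rev-nAAC and 19.6 ± 7.08 CPM in sham at 6 weeks, and 66.6 ± 14.7 CPM in Rev-nAAC and 22.5 ± 9.62 CPM in sham at 8 weeks, -2.31 ± 0.52 (adjusted p = 0.0083). Its Rev-nAAC mean was below the sham mean at 6 weeks and above it at 8 weeks. Nr4a3, an orphan nuclear receptor, also had a lower log2 difference at 6 weeks, at -3.0.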

How the data were processed

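The deposited values are raw read counts per gene of 45 libraries of total RNA from left ventricular tissue, extracted with Trizol and built with a VAHTS Universal V6 kit per the labels. The authors named fastp 0.20.1, HISAT2 2.1.0, HTSeq 0.11.2 and the build GRCm38 (mm10), per the submitters' processing notes. The annotation, the strand setting and the handling of shared reads are not given in the sources used here, so close copies and overlapping genes are uncertain. Values were whole numbers, totals were 31.6 to 36.0 M (M, mega), and 0 columns were left unused. No library was a copy of another: the closest pair correlated at 0.995. The treatment tag of 4-week nAAC replicate 1 conflicts with its title, which was followed.

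Counts were fitted with edgeR 4.0.16 in R 4.3.3 (TMM, filterByExpr with a minimum count of 10 and a minimum total of 15, robust quasi-likelihood) over all 45 libraries and 9 groups, with Benjamini-Hochberg adjustment in each comparison and a threshold of 0.05. CPM used the TMM library sizes. On counts simulated for Rev-nAAC against sham at 6 weeks over 15444 genes, 71% of 100 genes changed by 1 on the log2 scale and 93% of 100 changed by 2 were called, with 7 false calls. The simulated counts had the same spread per gene in all groups. Groups of unequal spread, a library that stands apart and unequal sex were not simulated.

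The 39 gene lists (24 of programs, 15 of cell types, 993 of 1000 members in the table) are described by counts and medians beside all genes. Members and lists were chosen with earlier results of these data known. Text genes were named by rule: the 12 largest rises and 12 largest falls with at least 2 CPM, no overlap of libraries and a gene name, a panel of 16 load genes, up to 4 members with the smallest p in each list, and the 6 largest changes in each direction in Rev-nAAC against nAAC and between ages. Other list members are named as examples from among those called, and Tfrc, Il11, Gdf15, Myl7 and Sln were picked after their values were seen. Some genes that these rules select are not reported here, though counts and medians include them. Marker sums and the mitochondrial share were tested by exact permutation. Promoters are from RefSeq, and 25521 genes were matched to it by symbol. Alternatives were RLE scaling, mitochondrial genes taken out, no filter, DESeq2 1.42.0, limma 3.58.1 voom, a replicate block, sex as a covariate, males alone, the 10 libraries alone, and each library left out.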

Additional observations from a re-analysis of the deposited data

Results flagged for a closer look

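Among 334 sets of 5 library values, 28 had a library far from the other 4, where chance gives about 1 in 20 for independent, normally spread values. The sets share the same 10 libraries, so the 28 were not tested against that rate. Of these libraries, 16 were Rev-nAAC replicate 4, 6 were Rev-nAAC replicate 1, and 2, 3 and 1 were sham replicates 1, 2 and 4. No cause was tested.

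In Rev-nAAC replicate 4 several genes were far above the other 4 Rev-nAAC libraries. Slc4a1 was at 12.3 CPM against at most 1.23, Fosb at 11.4 against at most 1.5 and Zfp36 at 145 against at most 40.2. Cenpf was at 9.10 CPM against at most 3.16, Tlcd4 at 2.38 against at most 0.990, Cacna1h at 8.69 against at most 3.81 and Ccl11 at 0.866 against at most 0.175, genes that were lower in Rev-nAAC than in sham. Atp2a2 was at 11485 CPM against at most 8682, Tnnt2 at 4934 against at most 3326 and Ppargc1a at 109 against at most 61.7. Other genes were far below the other 4. Ankrd1 was at 492 CPM against at least 1946, Col1a1 at 62.8 against at least 160.2, Sod3 at 25.8 against at least 44.0, Gsn at 1663 against at least 2122 and Pi16 at 45.2 against at least 138. The summed level of the fibroblast markers was 2708 CPM in that library against at least 4033.

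In Rev-nAAC replicate 1 the genes were of the interferon and antigen presentation lists. Ifi27 was at 90.4 CPM against at most 42.5 in the other Rev-nAAC libraries, Usp18 at 11.7 against at most 6.88, B2m at 604 against at most 386, H2-D1 at 461 against at most 333, H2-K1 at 445 against at most 277.0 and Psmb9 at 22.4 against at most 12.5. In sham, Atp2a2 was high in replicate 1 at 13489 CPM and Dcn low there at 418 CPM. Sham replicate 2 was high in Il1rl1 at 2.25 CPM and Jchain at 0.228 CPM and low in Kcnn2 at 14.6 CPM, and sham replicate 4 was high in Angpt1 at 47.3 CPM.

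The Rev-nAAC difference from sham changed between ages in the test of that change by edgeR. From 4 to 6 weeks the signed log2 difference increased in Ccnb1 by 6.36, Depdc1a by 5.41, Hmmr by 5.38, Nuf2 by 5.29, Bub1 by 5.23 and Melk by 5.02. It changed the other way in Nmrk2 by -5.07, Lcn2 by -4.49, Ciart by -3.92, Myh7 by -3.61, Cyp1a1 by -3.56 and Serpina3n by -3.18. Set against 8 weeks, the 6-week difference was higher in Tll2 by 3.70, Top2a by 3.42, Pacsin1 by 3.19, Mki67 by 3.15, Prc1 by 3.05, Ccl7 by 2.64, Timp1 by 2.36, Col1a1 by 1.49 and Col3a1 by 1.45. It was lower in Lrrc52 by -3.18, Inmt by -3.04, Nr4a3 by -3.0, Irs2 by -2.31 and Fstl4 by -2.28.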

How the results depend on the processing

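Rev-nAAC against sham at 6 weeks gave 2634 calls with edgeR, and 2665 with RLE scaling, 2646 with mitochondrial genes taken out, 2066 with no filter on low counts, 2991 with DESeq2, 2667 with sex in the fit and 2775 with the 10 libraries alone. Of the 2634, 2629 kept their call with DESeq2, 2373 with sex in the fit, 2127 with the 10 libraries alone and 2012 with no filter. With limma voom and quality weights it gave 4597, 2172 higher and 2425 lower. Leaving out each library gave 1812, without Rev-nAAC replicate 1, to 3400, without Rev-nAAC replicate 4, and for lower genes 860 to 1709. With sex in the fit and replicate 4 left out, 2 choices added after seeing the data, 3302 were called. None of the 147 named genes called in this comparison changed direction in its 21 alternatives. A total of 116 kept their call in every alternative that tested them, and some of these were not tested in 1 alternative.

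The difference at 6 weeks minus that at 4 weeks had 202 genes higher with no filter, 748 calls with DESeq2, 339 of them lower, and 1632 with voom, 946 higher and 686 lower. Leaving out each library, an alternative added after seeing the data, gave 323, without 4-week sham replicate 4, to 634, without 4-week Rev-nAAC replicate 3, and 106 to 214 lower. The difference at 6 minus that at 8 weeks had 490 calls with no filter, 243 higher and 247 lower, 623 higher with DESeq2, and 2917 with voom, 1514 higher and 1403 lower. Leaving out each library gave 415, without 8-week Rev-nAAC replicate 4, to 2076, without 8-week Rev-nAAC replicate 5, with 209 to 1118 higher and 206 to 958 lower. It gave 526, 522 and 479 without 8-week Rev-nAAC replicates 2 and 3 and 6-week sham replicate 5. The causes were not tested.

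Marker sums are log2 ratios of summed CPM. As a mean of log2(CPM + 0.5) the atrial list reversed to -0.55 (adjusted p = 0.25 by exact permutation), since Nppa outweighs the other members in the sum, and fibroblast, lymphatic and mesothelial lists lost their call, at 0.54, -0.087 and 0.31. Leaving out each library, where fewer libraries raise the smallest possible p, gave 1.88 to 2.58 for the atrial list and 0.53 to 0.72 for the fibroblast list, most of them no longer called. The mural cell list ran between -0.19 and -0.10, the adipocyte list between -0.28 and -0.13, the neutrophil and mast cell list between 0.32 and 0.65 and the tendon and cartilage list between 1.19 and 2.17, each called in 1 of these fits.

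With the replicate number as a block, 2587 genes were called for Rev-nAAC against sham. Same-numbered libraries of these groups deviated together with correlations of -0.07 to 0.03, so the numbers do not pair them, and 1 of 5 Rev-nAAC libraries correlated best with its own number. Depth limits the genes near or below 1 CPM, where a library holds few reads of a gene.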
